A study of Mus musculus with 2 samples.

Results

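The glutathione S-transferases, UDP-glucuronosyltransferases, sulfotransferases and aldehyde dehydrogenases of the E18.5 mouse ureter were examined in Pparg-cKO and control embryos. The members were all genes whose array name carries one of these family symbols (Gst of the alpha, kappa, mu, omega, pi and theta classes, Ugt, Sult and Aldh), without the retinaldehyde dehydrogenases Aldh1a1, Aldh1a2 and Aldh1a3. This rule used no measured value and gave 70 of the 29923 genes on the arrays: 19 glutathione S-transferases, 15 UDP-glucuronosyltransferases, 18 sulfotransferases and 18 aldehyde dehydrogenases, read by 100 probes.

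These enzymes make reactive or poorly soluble compounds harmless and ready for excretion. Glutathione S-transferases attach glutathione to electrophiles, UDP-glucuronosyltransferases add a sugar and sulfotransferases a sulfate to hydroxyl groups of drugs, bile acids, steroids and neurotransmitters, and aldehyde dehydrogenases oxidise aldehydes to acids. The lining of the urinary tract is in contact with excreted conjugates, and several of these families are known targets of the transcription factor NRF2 (Nfe2l2), of the aryl hydrocarbon receptor and of nuclear receptors.

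RNA came from pooled ureters of NMRI embryos at E18.5 and was compared on 2 two-colour arrays. Female pools were hybridised on the array of replicate 1 and male pools on that of replicate 2. Pparg-cKO embryos carried Pax2-cre on 1 chromosome and Pparg alleles with floxed exons 2 and 3 on both, so that the receptor gene was targeted in the nephric duct, the ureteric epithelium and the renal collecting duct system, where that transgene recombines. The control pools are labelled with a floxed allele and an unstated second allele. The study describes its controls as littermates without cre, so that the transgene also differed between the pools. In such whole-ureter RNA, fewer cells of a type and less RNA per cell cannot be told apart. The dyes were exchanged between the arrays, so that sex, dye orientation and array changed together and cannot be told apart either. The deposited ratios run against the dye labels on both arrays. All directions here follow the deposited ratios, as the study's text does. This direction is the likely one, since the deposited values and the study's text share it, whereas the dye labels alone would turn every sign.

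The targeted gene Pparg, the receptor itself, gave processed signals of 12357 in the Pparg-cKO and 6113 in the control pool in females, and of 12930 and 6688 in males. Its log2 ratio was 0.97 ± 0.02 (SD, n = 2 arrays; adjusted p = 0.0373, limma). Where its probe lies relative to the floxed exons was not analysed here, so it does not check the labels. The ureter markers were present: all 6 superficial urothelial, all 4 basal urothelial and all 5 smooth muscle markers were well above background in at least 1 pool. All 6 superficial markers were lower on both arrays, 2 of them (Krt20 and Upk3b) with an adjusted p under 0.05 in limma. Of the 4 basal markers, Krt14 and Krt15 were higher by the same test. Trp63 had log2 ratios of -0.53 and -0.44 (adjusted p = 0.233, limma), and Krt5 of -0.86 in the female and 0.35 in the male pools. The summed signal of the superficial markers was 45366 against 78083 in the female and 49855 against 67979 in the male pools, Pparg-cKO before control, and that of the basal markers 5435 against 5121 and 7286 against 5148. Without the brightest marker of each list, Upk3a and Krt5, the superficial sums were 14169 against 36961 and 17358 against 31814 and the basal sums 4160 against 2807 and 4744 against 3099 in the same order. The part of these cell layers in the results below was not tested.

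To pass the fold rule, a gene had to change 1.5-fold or more the same way on both arrays, and its brighter channel had to reach a processed signal of 100 on each of them. By this rule 4 of the 70 members differed. Gsta3, Ugt2b34 and Ugt8a were higher and Aldh1a7 was lower in Pparg-cKO ureters. Only 33 members were bright enough to pass, and the 4 were 12.1% of them. Ugt8a was bright enough only through its Pparg-cKO pools, where it was higher, since its control signals were 67.4 and 99.1. The same held for Ugt2b34 on the female array, with a control signal of 99.0. Among all 14015 genes that were bright enough, 1.84% passed, 0.792% as higher and 1.05% as lower. In limma, 3 of the 54 members tested (5.56%) had an adjusted p under 0.05, namely Gsta3, Ugt2b34 and Aldh1a7, against 0.751% of all 22499 genes tested, of which 0.382% were higher and 0.369% lower. At an unadjusted p under 0.05 there were 16 members, 5 higher and 11 lower, or 29.6% of those tested against 8.51% of all genes tested. The median log2 ratio of the members was -0.03, and that of all genes was 0.01. Of the 33 bright members, 13 stayed within 1.2-fold on both arrays, and 23 (69.7%) had the same sign on both, against 52.9% of all bright genes.

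**Figure D1:**
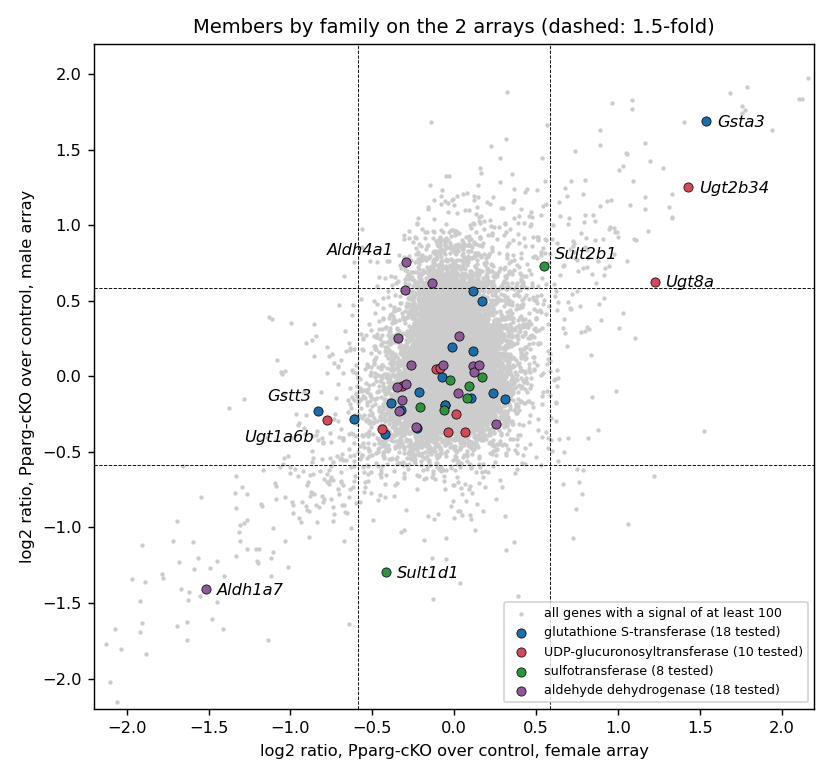
Log2 ratio of Pparg-cKO over control on the female array (x axis) and on the male array (y axis) for the 54 members tested, coloured by family, over all 14015 genes with a signal of at least 100 (grey; points beyond the axes are not drawn). Gsta3, Ugt2b34 and Ugt8a lie in the upper right corner beyond the dashed 1.5-fold lines and Aldh1a7 in the lower left, while most members lie in the central cloud.

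The probes of the 4 members past the fold rule are shown by their first 30 of 60 bases, since these oligos decide which transcript was read. Positions are those of the array design on build mm9, and the place of each probe within exons was not analysed here. The Gsta3 probe lies at chr1:21255043-21255102 (plus strand), the Ugt2b34 probe at chr5:87318849-87318908 (minus strand), the Ugt8a probe at chr3:125568995-125569054 (minus strand) and the Aldh1a7 probe at chr19:20767553-20767612 (minus strand).
Gsta3: attcaggcaactataagtacatagccccca
Ugt2b34: gtgtatgtatgtgattcatgtcccttttta
Ugt8a: atggagacaagtcacaactttcataaattc
Aldh1a7: ttccttgaactatgtaccatgcatgataac

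Gsta3, an alpha-class transferase, was the glutathione S-transferase with the largest change. Its processed signal was 1778 in the Pparg-cKO and 582 in the control pool of females, and 2188 and 683 in males. Both Pparg-cKO pools were above both control pools. Here and for the other members past the fold rule this is no separate support, since the rule chose them for such ratios. The log2 ratios of 1.54 and 1.69 gave a mean of 1.61 ± 0.11 (SD, n = 2), or 3.06-fold higher (95% interval 2.52 to 3.71; adjusted p = 0.0110, limma). A second Gsta3 probe read signals of 1269 and 387 in the female and 1599 and 499.7 in the male pools, with log2 ratios of 1.65 and 1.67. The 2 oligos thus gave the same direction and a like size.

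The other alpha-class members did not pass either test. Gsta4, which conjugates the lipid peroxidation product 4-hydroxynonenal, had signals of 9396 and 9158 in the female Pparg-cKO and control pools and of 8685 and 7863 in the male ones. Its ratio was close to 1, with a 95% interval of 0.870 to 1.30-fold. Gsta2 was 0.31 higher in the female and 0.15 lower in the male pools in log2 ratio, so that its arrays disagreed in direction.

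The mu class consists of 7 members, 5 of them bright. The log2 ratios of 4 of these 5 were below 0 on both arrays, and none passed either test. Gstm1 read 7755 in the Pparg-cKO and 11502 in the control pool in females, and 7869 and 10264 in males. Its log2 ratios were -0.61 and -0.28, with a mean of -0.45 ± 0.24 (SD, n = 2; adjusted p = 0.387, limma). A second Gstm1 probe gave -0.68 and -0.51, but the design places it on chromosome 5, away from the Gstm cluster on chromosome 3, and it is uncertain which transcript it reads. Gstm4 had log2 ratios of -0.42 and -0.38 at its brighter probe and of -0.28 and -0.32 at the other, with an adjusted p of 0.337 in limma at the former. Gstm2 was the exception among the bright mu members. All 3 of its probes had ratios above 0 on both arrays, and its brightest probe gave 0.11 and 0.57 (adjusted p = 0.633, limma). Gstm1, Gstm2 and Gstm4 are close paralogs, and cross-hybridisation between them was not tested.

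The theta class had 3 bright members, Gstt1, Gstt2 and Gstt3, and all 3 had log2 ratios below 0 on both arrays without an adjusted p under 0.05 in limma. Gstt3 had the lowest mean ratio of any bright glutathione S-transferase. Its signals were 1557 and 2411 in the female and 1654 and 2187 in the male pools, Pparg-cKO before control. The log2 ratios of -0.83 and -0.23 gave a mean of -0.53 ± 0.43 (SD, n = 2; adjusted p = 0.467, limma). The difference between its 2 arrays was of the size of the mean itself. Gstt1 and Gstt2 had smaller and more even ratios, with means of -0.27 ± 0.07 and -0.29 ± 0.08 (SD, n = 2). Gstt4 was not well above background in any pool.

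The pi class was level between the pools within narrow limits. Gstp2 read 7856 and 7767 in the female and 7397 and 7977 in the male pools, Pparg-cKO before control, which gave a 95% interval of 0.809 to 1.17-fold. Gstp1 had an interval of 0.802 to 1.21-fold, and one of its probes lists both Gstp1 and Gstp2 in the design. Gsto1, an omega-class enzyme that also reduces dehydroascorbate, had log2 ratios of 0.17 and 0.50 (adjusted p = 0.575, limma). Gstk1, Gstm3, Gstm5, Gstm6, Gstm7 and Gsto2, the members not yet described, had no adjusted p under 0.05. Over the whole family, 18 of 19 members were well above background in all 4 pools, 1 was called higher and 0 were called lower by limma. At an unadjusted p under 0.05 the family had 2 members higher and 5 lower. Its median log2 ratio was -0.04.

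Ugt2b34, a glucuronosyltransferase of the 2b group that acts on steroids and xenobiotics, was 2.53-fold higher (95% interval 2.08 to 3.08). Its signal was 307 in the Pparg-cKO and 99.0 in the control pool in females, and 332 and 136 in males. The log2 ratios were 1.43 and 1.25, with a mean of 1.34 ± 0.12 (SD, n = 2; adjusted p = 0.0196, limma). The 4 values did not overlap between genotypes, which is no separate support for a gene chosen by the fold rule. Among the family it was the only one of 7 Ugt2b members that was well above background in all 4 pools, while 4 were in no pool and Ugt2b37 and Ugt2b38 were in some.

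Ugt8a was the other family member past the fold rule, although it is not a detoxification enzyme by its known role: it transfers galactose to ceramide and so makes the galactosylceramide of myelin and some epithelia. It read 186 and 67.4 in the female and 158 and 99.1 in the male pools, Pparg-cKO before control. Both Pparg-cKO pools exceeded both controls. The log2 ratios of 1.22 and 0.63 gave a mean of 0.93 ± 0.42 (SD, n = 2), or 1.90-fold (95% interval 1.41 to 2.56), and the adjusted p of 0.151 in limma missed the threshold. With a minimum signal of 200 in place of 100 it no longer passed the fold rule.

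Of the 3 Ugt1a members, which glucuronidate phenols, Ugt1a6a and Ugt1a6b had ratios below 1 on both arrays. Ugt1a10 had log2 ratios of 0.01 and -0.25 at signals of 19.5 to 26.7, with a 95% interval of 0.745 to 1.14-fold. In this locus several first exons are joined to the same later exons. The brightest Ugt1a probe carries the name Ugt1a6b, but its design accessions include Ugt1a6a, Ugt1a6b, Ugt1a7c and Ugt1a10, and it lies at chr1:90115493-90115552 (mm9, plus strand). A second Ugt1a6b probe lists Ugt1a6b alone and lies upstream at chr1:90004249-90004308. The first 30 bases of both are shown because they tell a shared from a single transcript.
Ugt1a6b, shared probe: accaaagtatgttctaaggcaagtacatct
Ugt1a6b, single probe: tccttacaccagaattctctgtggctgtta

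The shared probe read 824 in the Pparg-cKO and 1341 in the control pool in females, and 894 and 1175 in males. Its log2 ratios were -0.78 and -0.29, with a mean of -0.53 ± 0.35 (SD, n = 2; adjusted p = 0.384, limma). The single probe read 80.4 and 148 in the female and 85.3 and 142 in the male pools, with log2 ratios of -0.76 and -0.61. Control pools were thus above Pparg-cKO pools for both probes on both arrays, but the gene passed neither test. Ugt1a6a, whose probe also lists other Ugt1a genes, had log2 ratios of -0.44 and -0.35 at signals of 35.7 to 63.4 (adjusted p = 0.349, limma). Over the 15 members of the family, 10 were tested and 5 were well above background in all 4 pools. At an unadjusted p under 0.05 there were 2 higher and 2 lower members, and the family median log2 ratio was -0.07. Ugt2a1, Ugt3a1 and Ugt3a2 were dim, at signals of 3.90 to 12.7, and Ugt2a3 was not well above background in any pool.

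**Figure D2:**
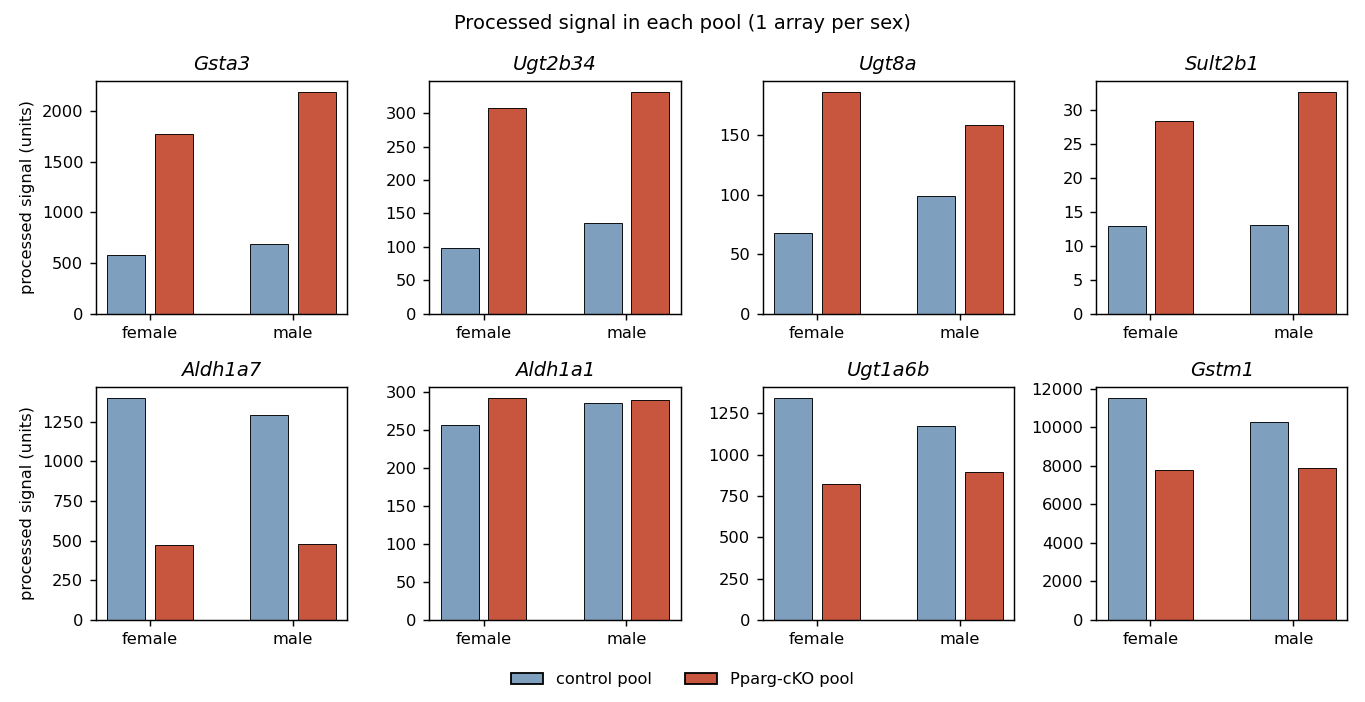
Processed signal (y axis, scanner units, starting at 0) of 7 members and of Aldh1a1 in the control (blue) and Pparg-cKO (red) pool of the female and the male array; each bar is 1 pool, with no error bar because each pool was measured once. Gsta3, Ugt2b34, Ugt8a and Sult2b1 have the taller bar in Pparg-cKO on both arrays, Aldh1a7, Ugt1a6b and Gstm1 in control, and Aldh1a1 has bars of 257 to 291.

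Sulfotransferases were often at background. Of the 18, 6 were well above background in all 4 pools and 9 were in none, among them 6 of the 7 Sult2a members, which sulfate bile acids and steroids in liver. The probes of Sult2a1 and Sult2a4 share a run of 36 bases and those of Sult2a1 and Sult2a2 one of 26, so that these probes may not tell the genes apart. None of the 18 passed either test, 1 was higher and 1 lower at an unadjusted p under 0.05 in limma, and the median log2 ratio was 0.01. Only 3 members were bright. Sult1a1, which sulfates phenols, read 1918 and 1779 in the female and 1478 and 1687 in the male pools, Pparg-cKO before control, with a 95% interval of 0.798 to 1.20-fold. Sult5a1 had an interval of 0.832 to 1.22-fold and Sult2a8, a bile acid sulfotransferase, of 0.873 to 1.29-fold. The arrays of all 3 disagreed in sign.

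The sulfotransferase with the lowest p was Sult2b1, which sulfates cholesterol in keratinising epithelia and is described here after its values were seen. Its probe, at chr7:52985450-52985509 (mm9, minus strand), read 28.4 in the Pparg-cKO and 13.0 in the control pool in females, and 32.7 and 13.0 in males. Both Pparg-cKO pools were above both controls, at signals too low for the fold rule. The log2 ratios were 0.55 and 0.73, with a mean of 0.64 ± 0.13 (SD, n = 2; unadjusted p = 0.00216, adjusted p = 0.136, limma). With processed signals in place of those corrected with an offset the mean was 1.23, and limma called it. Sult1d1, which sulfates catecholamines and was also chosen after its values were seen, was well above background in both control pools, at 14.3 and 26.9, and not in the Pparg-cKO pools, at 5.47 and 1.84. Its log2 ratios were -0.42 and -1.30. Over the mean of both arrays it was at least 1.77-fold lower in Pparg-cKO, a bound that the female array alone did not reach and that was set by the lowest signal called well above background on each array (adjusted p of the fit 0.340, limma).

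Markers of kidney proximal tubule and of liver, the organs best known for many Ugt and Sult genes, were read beside these dim members. Of the 9 proximal tubule markers, 7 had log2 ratios below 0 on both arrays, 2 (Slc22a8 and Pck1) were not well above background in any pool and none passed either test. Their summed signal lay between 1771 and 1971 in the 4 pools, most of it from Aqp1. Without Aqp1 the sum was 194 against 246 in the female and 141 against 281 in the male pools, Pparg-cKO before control. Slc22a6, an organic anion transporter, had log2 ratios of -0.49 and -0.92 (unadjusted p = 0.00389, adjusted p = 0.186, limma). The median log2 ratio of the list was -0.13 in the female and -0.22 in the male pools. Of the 9 liver markers, 6 had ratios below 0 on both arrays, with list medians of -0.05 in the female and -0.77 in the male pools. Their summed signal was 3581 in the Pparg-cKO and 4626 in the control pool of females, and 4008 and 7596 in the male pools. Without Trf, their brightest marker, it was 2229 and 2310 in the female and 2545 and 4943 in the male pools. Trf was lower by the fold rule, with log2 ratios of -0.87 and -0.77 (adjusted p = 0.0608, limma). The part of these cells in the values of Sult1d1 was not tested.

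**Figure D3:**
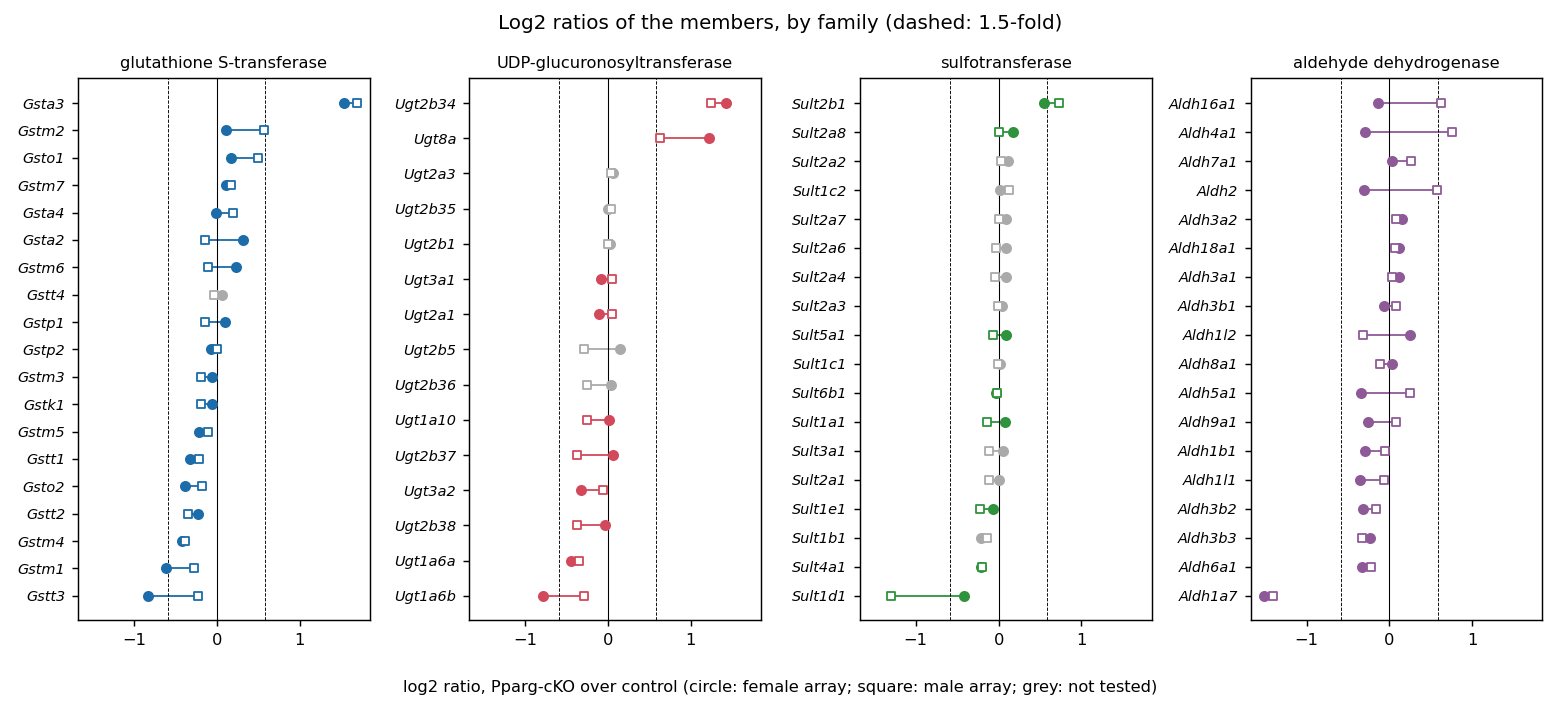
Log2 ratio of Pparg-cKO over control (x axis) for all 70 members by family, each gene on its own line with the female array as a filled circle and the male array as an open square; grey genes were not tested because their probe was not well above background, and dashed lines mark 1.5-fold. The circles and squares of Gsta3, Ugt2b34 and Aldh1a7 lie far from 0 and close together, whereas those of Aldh4a1, Aldh16a1 and Aldh2 lie on opposite sides of 0.

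Aldehyde dehydrogenases were well detected, with all 18 members well above background in all 4 pools. Aldh1a7 was the only one of these that passed a test, and the only one of the 70 that was called lower. This cytosolic enzyme is a close rodent relative of the retinaldehyde dehydrogenase Aldh1a1. It read 470 in the Pparg-cKO and 1399 in the control pool in females, and 482 and 1295 in males. The pools of each genotype differed little between the arrays and did not overlap with the other genotype. The log2 ratios were -1.52 and -1.41, with a mean of -1.46 ± 0.08 (SD, n = 2), or 2.76-fold lower (adjusted p = 0.0131, limma).

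The relative Aldh1a1, which is not a member, read 291 and 257 in the female and 289 and 285 in the male pools, Pparg-cKO before control. Its log2 ratio was 0.08 ± 0.02 (SD, n = 2), with a 95% interval of 0.880 to 1.27-fold and an adjusted p of 0.932 in limma. The interval of Aldh1a7, 0.301 to 0.438-fold, did not meet that of Aldh1a1, and the longest run of bases shared by their 2 probes was 8. The 100 bases before the start sites of Aldh1a7 and of the more similar of 2 Aldh1a1 start sites are shown, since both genes lie on chromosome 19 and their promoters are alike. They are taken from RefSeq on build GRCm38.p6, at chr19:20727557-20727656 (minus strand) for Aldh1a7 and chr19:20601868-20601967 (plus strand) for Aldh1a1. Capitals mark the bases that differ between them, which are 6 of 100.
Aldh1a7: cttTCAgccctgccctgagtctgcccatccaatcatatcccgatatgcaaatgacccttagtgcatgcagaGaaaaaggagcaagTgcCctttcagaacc
Aldh1a1: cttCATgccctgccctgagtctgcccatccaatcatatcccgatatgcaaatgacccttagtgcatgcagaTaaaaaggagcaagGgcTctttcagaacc

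The other aldehyde dehydrogenases did not pass either test. Aldh6a1, a mitochondrial enzyme of valine breakdown, had log2 ratios of -0.34 and -0.23 (unadjusted p = 0.0441, adjusted p = 0.572, limma). Aldh3b3, which oxidises fatty aldehydes, had -0.23 and -0.33 (unadjusted p = 0.0436, adjusted p = 0.571, limma). Both were below 1 on both arrays, with 95% intervals of 0.681 to 0.992-fold for Aldh6a1 and 0.682 to 0.992-fold for Aldh3b3. Aldh3b2 had log2 ratios of -0.32 and -0.16, with an interval of 0.698 to 1.03-fold. Aldh7a1, an enzyme of lysine breakdown, had a 95% interval of 0.900 to 1.36-fold. The remaining members of the family had no adjusted p under 0.05 in limma. At an unadjusted p under 0.05 the family had 3 members, all lower, and its median log2 ratio was -0.04.

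Of the 12 bright aldehyde dehydrogenases, 4 had opposite signs on the 2 arrays, against 6595 of all 14015 bright genes. Aldh4a1, an enzyme of proline breakdown, read 368 and 435 in the female and 626 and 403 in the male pools, Pparg-cKO before control, with log2 ratios of -0.29 and 0.76. Aldh16a1, the bright member with the highest mean ratio of its family, had -0.14 and 0.62. Aldh2, which clears acetaldehyde and was named after its values were seen, had -0.30 and 0.57. In each of these the male Pparg-cKO pool was the highest of the 4 pools. The family median was -0.25 in the female and 0.05 in the male pools. Over all genes with a signal of at least 100, 444 genes were past 1.5-fold on the female array, 176 of them higher, and 1253 on the male array, 965 of them higher. Sex, dye orientation and array cannot be told apart in this pattern.

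Genes with more than 1 probe allowed a comparison of oligos. Of 25 members with several probes, 17 had over 1 that was well above background, and in 2 of these (Aldh16a1 and Sult5a1) the mean ratios of the probes differed in sign. The further probe was dim in both, with Pparg-cKO signals of 7.77 and 9.90 for Aldh16a1 and of 8.27 and 7.37 for Sult5a1. The 95% interval of the ratio lay within 2-fold either way for 49 of the 54 members tested. The median SD between the 2 arrays over these members was 0.13 in log2 ratio, and the median SD among the 4 spots of a probe was 0.11 in the female and 0.13 in the male pools.

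The genes that feed, complement and regulate these families were then read from 10 lists, with 134 genes on the arrays. In limma 1 was called higher and 4 lower of the 124 tested, against 0.382% and 0.369% of all genes tested. By the fold rule 2 were higher and 5 lower of the 102 that were bright enough, against 0.792% and 1.05% of all bright genes. The lists were chosen with earlier results of these data known, so these shares are no test of the pathways. The genes of glutathione synthesis and recycling had 0 of 21 calls by either test, with 2 at an unadjusted p under 0.05. Gclc, the catalytic subunit of the rate-limiting ligase, had log2 ratios of -0.42 and -0.09. The supply of UDP-glucuronate and of the sulfate donor PAPS had 0 of 11 calls, with 1 at an unadjusted p under 0.05. Ugdh, which makes UDP-glucuronate, was within a 95% interval of 0.841 to 1.23-fold. Papss1, a PAPS synthase, read 2599 and 1974 in the female and 3217 and 2231 in the male pools, Pparg-cKO before control (log2 ratio 0.46 ± 0.07, SD, n = 2; adjusted p = 0.256, limma). Of the 12 deconjugating enzymes, 9 were tested in limma and 6 were bright enough for the fold rule. They had 0 calls, with 2 at an unadjusted p under 0.05.

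Proteins related to the glutathione transferases by fold or reaction, but with other names, included Clic3, the gene with the largest mean log2 ratio in either direction among those tested in the 10 lists. Clic3, a chloride intracellular channel protein with a glutathione transferase fold, read 219 and 30.6 in the female and 231 and 46.4 in the male pools, Pparg-cKO before control. It was 4.19-fold higher (log2 ratio 2.07 ± 0.13, SD, n = 2; adjusted p = 0.00728, limma). Clic6 of the same group passed the fold rule, with log2 ratios of 0.70 and 1.05 (adjusted p = 0.0870, limma). The microsomal transferase Mgst3 was lower by the fold rule, at 2800 and 4540 in the female and 2418 and 4453 in the male pools (log2 ratio -0.80 ± 0.09, SD, n = 2; adjusted p = 0.0676, limma). Members of this list therefore moved in both directions.

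Alcohol and carbonyl metabolism showed 3 calls in limma among the 23 genes tested of 24, all lower, against 0.369% of all genes tested that were called lower. The list was chosen with earlier results of these data known, so this share is no test of the pathway. Adh1, an alcohol dehydrogenase that oxidises ethanol and retinol, read 8533 in the Pparg-cKO and 20856 in the control pool in females and 8037 and 17462 in males. It was 2.30-fold lower (log2 ratio -1.20 ± 0.16, SD, n = 2; adjusted p = 0.0266, limma), a call that was lost without the filter on dim probes and with the deposited table. Akr1b3, the aldose reductase, read 7119 and 17525 in the female and 6850 and 15766 in the male pools and was 2.40-fold lower (log2 ratio -1.26 ± 0.11, SD, n = 2; adjusted p = 0.0213, limma). Adh6a was called lower at dim signals of 7.59 to 51.4 (log2 ratio -1.25; adjusted p = 0.0213, limma), and its log2 ratio was -2.36 with processed signals. These enzymes act beside Aldh1a7 on alcohols and aldehydes. Inmt, a methyltransferase for amines, was the only call among the 8 tested of 10 other conjugating enzymes (log2 ratio -0.89 ± 0.01, SD, n = 2; adjusted p = 0.0462, limma). The call was lost with processed signals (adjusted p = 0.0637, limma), with median centring (adjusted p = 0.155, limma), with the deposited table and without the filter on dim probes. Abcc4, an exporter of conjugates, was lower by the fold rule alone (log2 ratio -0.79 ± 0.25, SD, n = 2; adjusted p = 0.116, limma). Abcc4 no longer passed that rule with median centring, nor Abcc4 and Clic6 with a minimum signal of 200.

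**Figure D4:**
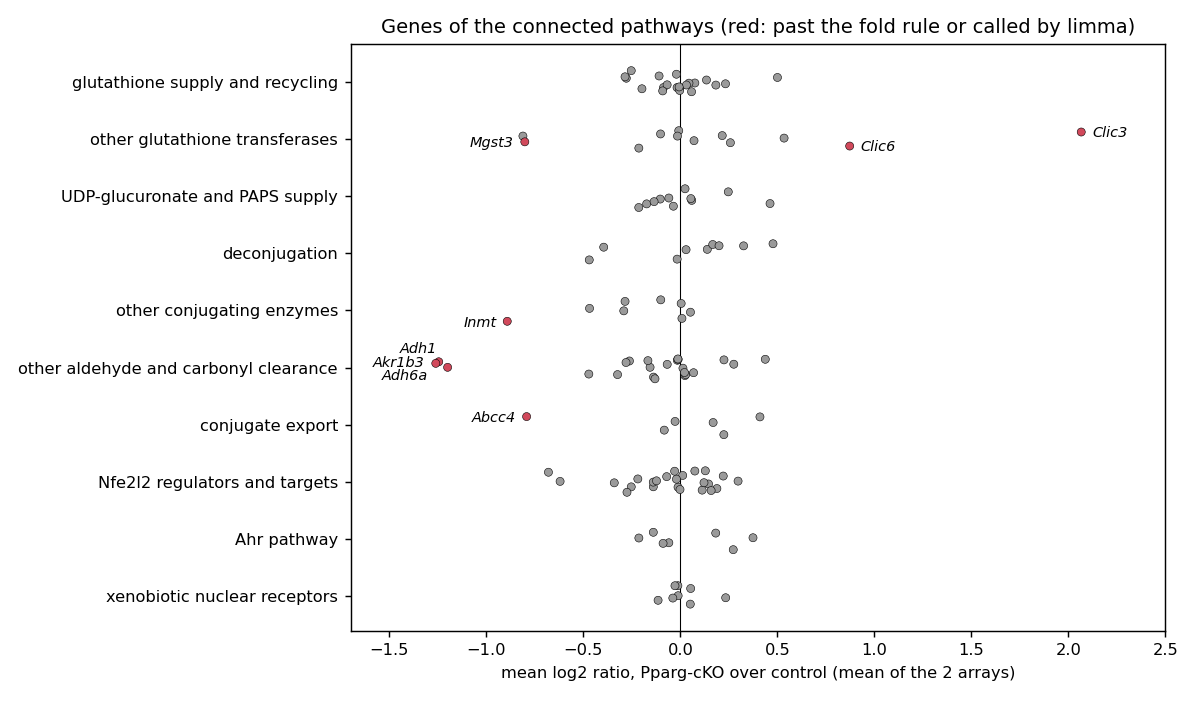
Mean log2 ratio of Pparg-cKO over control (x axis, mean of the 2 arrays) for the tested genes of 10 lists of connected pathways; red points passed the fold rule or limma and are named, grey points did not. Clic3 and Clic6 lie to the right and Mgst3, Inmt, Adh1, Akr1b3, Adh6a and Abcc4 to the left, while the regulator lists hold no red point.

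Regulators did not pass either test with the offset. Of 24 Nfe2l2 regulators and targets, 0 were called and 3 had an unadjusted p under 0.05 in limma, all lower. The 0 depended on the offset of the background correction: without it limma called Me1 and Osgin1 of this list, which had log2 ratios of -0.72 and -0.52 and of -0.87 and -0.49 with the offset. Nfe2l2 itself had log2 ratios of -0.42 and -0.26 (adjusted p = 0.473, limma), and its textbook target Nqo1 had a 95% interval of 0.734 to 1.12-fold. Of 9 genes of the aryl hydrocarbon receptor pathway 7 were tested in limma, 0 were called and 1 had an unadjusted p under 0.05. This was the receptor Ahr, with log2 ratios of 0.32 and 0.43 (adjusted p = 0.385, limma), while its target Cyp1b1 had an interval of 0.798 to 1.15-fold. Of 9 xenobiotic and lipid nuclear receptors and liver factors 8 were tested in limma, 0 were called and 0 had an unadjusted p under 0.05.

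Promoters were searched for the response elements of these regulators, in RefSeq windows of 250 bases before to 50 bases after each start site on build GRCm38.p6, on both strands. Windows were found for 57 of the 70 members, 68 windows in all. The core of the antioxidant response element, TGACNNNGC, was in 4 of the 68 (5.88%), those of Aldh9a1, Gsta3, Gstm5 and Gstm7, against 12.4% of all 32851 windows. The core of the xenobiotic response element, GCGTG, was in 16 (23.5%) against 32.4% of all windows, and Ugt8a was the only one of the 4 changed members among them. The direct repeat AGGTCANAGGTCA, as bound by PPARG with its partner, was in 0 of 68 against 0.0396% of all windows, which says only that these letters are not in these windows. A match describes the sequence and is no evidence of binding. The Gsta3 promoter around its match is shown because Gsta3 was the member with the largest rise. It lies at chr1:21240424-21240513 (plus strand), the match is in capitals and spans bases -121 to -113 from the start site.
Gsta3: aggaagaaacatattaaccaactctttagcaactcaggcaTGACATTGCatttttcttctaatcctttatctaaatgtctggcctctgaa

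The promoters of the other rising members differed in base composition. In the 250 bases before the start site, G and C made up 76.8% in Ugt8a, 42.0% in Gsta3, 41.6% in Ugt2b34 and 43.2% in Aldh1a7, against a median of 52.4% over all windows. The 100 bases before the start sites of Ugt2b34 (chr5:86906938-86907037, minus strand) and Ugt8a (chr3:125938653-125938752, minus strand) are shown for this contrast.
Ugt2b34: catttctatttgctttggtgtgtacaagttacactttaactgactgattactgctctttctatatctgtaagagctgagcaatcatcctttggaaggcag
Ugt8a: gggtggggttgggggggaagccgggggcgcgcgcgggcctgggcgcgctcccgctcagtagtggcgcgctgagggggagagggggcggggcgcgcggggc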

How the data were processed

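Ureter RNA of 2 pairs of Pparg-cKO and control pools was hybridised to 2 two-colour Agilent arrays of a single slide. The scanner files give, per the file headers, linear intensity values per spot, including a processed signal corrected for background and dye by Agilent Feature Extraction 10.7.3.1 as the submitters' processing notes name it. The deposited value table holds the authors' signed fold change (ratio) per probe, and was used for the direction and as an alternative. Each array held 157716 spots that were no controls, 4 for each of 39429 probes; 2.87% and 3.24% were removed as outliers and 0 were saturated.

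Mean signals were corrected with normexp (offset 50), loess-normalised per array (limma 3.58.1, R 4.3.3; control spots at weight 0), averaged over the spots of a probe and turned to run as the deposited table. The brightest probe stood for a gene. The limma test took the mean of 2 log2 ratios with empirical Bayes moderation (1 residual and 4.00 prior degrees of freedom), two-sided, Benjamini-Hochberg adjusted over the 22499 genes that on both arrays were well above background in either channel, where a probe counts as such if at least 0.5 of its kept spots are marked so. With 2 arrays of pools, p-values measure only the spread between these arrays, and their number limits the precision. The fit was tested on simulated data. Design names of all 70 members matched a RefSeq symbol through their accession.

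Members past a test were named, with the 3 brightest probes and the largest bright rise and fall of each family, and pathway genes past a test. The members and lists were chosen with earlier results of these data known. Alternatives were normexp without offset, processed signals, median centring, all probes, the deposited table, other brightness limits, no dim-probe filter and each array alone. Protein sequences were not used here. The values of a gene of the pathway lists are not reported here.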

Additional observations from a re-analysis of the deposited data

Results flagged for a closer look

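Members and pathway genes with a signal of at least 100 are named here if they moved at least 1.2-fold on each array in opposite directions. In each gene given here the log2 ratio was below 0 on the female and above 0 on the male array. The male minus female difference in log2 ratio was 0.88 for Aldh2 and 1.05 for Aldh4a1. It was 1.09 for Abcc3, a conjugate exporter, 1.14 for Ppard, a nuclear receptor related to Pparg, and 0.92 for Tkt, the transketolase. With 1 array of each sex and the dyes exchanged between them, these differences were not tested. Opposite signs of any size were found in 10 of the 33 bright members and 39 of the 102 bright pathway genes. Among all bright genes they were found in 6595 of 14015.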

How the results depend on the processing

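All 12 called members and pathway genes kept the direction of their ratio in 84 of 84 alternative values. For genes past the fold rule the single arrays could not differ in direction, since the rule asks for the same sign on both. The other alternatives process the same 2 arrays in another way, so this count is no independent support. Gsta3, Ugt2b34 and Aldh1a7 kept an adjusted p under 0.05 in limma under normexp without an offset, processed signals, median centring and all probes, and lost it with the deposited table, where the adjusted p was 0.533 for each. Over these 5 alternatives it ranged upward from 5.86e-05 for Gsta3, from 0.000200 for Ugt2b34 and from 0.000111 for Aldh1a7. Ugt8a ranged from 0.00859 to 0.541 and was called without an offset and with median centring, and Inmt ranged from 0.00372 to 0.533 and lost its call with processed signals, median centring, the deposited table and no filter on dim probes. That table gave 0 calls in limma for members, pathway genes and all genes alike; 15 members had an unadjusted p under 0.05, the same 4 members passed the fold rule, and the cause was not tested. Without an offset limma called 6 members (adding Sult1d1, Sult2b1 and Ugt8a), 11 pathway genes and 571 of all genes. Processed signals gave 4 members, adding Sult2b1. Without the filter on dim probes it called 3 pathway genes (Adh1 and Inmt lost their calls) and 94 of all genes; Adh1 also lost its call with the deposited table. By the fold rule, single arrays gave 6 to 7 members, 11 to 14 pathway genes and 444 to 1253 of all genes. The female array alone (replicate 2 left out) gave the 7 and added Gstm1, Gstt3 and Ugt1a6b as lower, and the male array alone added Aldh4a1 and Aldh16a1 as higher. Leaving out an array was not run for limma, which has no residual degree of freedom with 1 array.

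Family medians were close to 0 and several changed size or sign. Against -0.037 for aldehyde dehydrogenases, -0.039 for glutathione S-transferases, 0.0085 for sulfotransferases and -0.068 for UDP-glucuronosyltransferases, single arrays gave -0.25 to 0.049 for aldehyde dehydrogenases, -0.14 to -0.054 for glutathione S-transferases, -0.039 to 0.048 for sulfotransferases and -0.061 to 0.013 for UDP-glucuronosyltransferases. Median centring gave -0.054 for sulfotransferases. For UDP-glucuronosyltransferases the median was -0.16 without an offset, -0.21 with processed signals and 0 with the deposited table. The limma test is itself paired: each ratio sets 1 Pparg-cKO pool against the control pool of the same array. No further pairing was added. Signals near background limit what the Sult2a and Ugt2b probes can show.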
